A study of Homo sapiens with 9 samples.

Results

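Matrix proteases and the plasminogen activator system were examined in N/TERT cells, human keratinocytes from the epidermis that telomerase has made immortal. The genes were chosen by name, with no threshold on their values: the matrix metalloproteinases MMP1, MMP2, MMP9, MMP10, MMP14 and MMP28, the plasminogen activators PLAU (urokinase) and PLAT (tissue-type activator), and the urokinase receptor PLAUR. All 9 were among the 60671 genes in the count files, and 6 of them were among the 13390 genes with enough reads to test. MMP1, MMP9 and MMP10 were too low. The inhibitors of these enzymes were not in the chosen set and were followed as separate lists.

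Polyadenylated RNA was sequenced in 9 libraries, all from untreated cells: 3 from wild-type cells (control), 3 from cells whose SGPL1 gene was targeted with CRISPR (KO) and 3 that overexpressed SGPL1 (OE). The product of SGPL1 is sphingosine-1-phosphate lyase, the enzyme that irreversibly cleaves this lipid signal. The series' design text calls the libraries biological replicates. How many clones the edited cells came from, and which promoter drove the overexpression, are not given in the sources used here, so p-values measure the spread between these libraries.

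Matrix metalloproteinases are zinc-dependent endopeptidases made as inactive proenzymes. Collagenases cut fibrillar collagen, stromelysins and gelatinases cut proteoglycans, denatured collagen and basement membrane, and the membrane-anchored MMP14 activates pro-MMP2 on the cell surface in a complex with the inhibitor TIMP2. Urokinase, held at the surface by PLAUR, and tissue-type activator both turn plasminogen into plasmin, a serine protease that cleaves fibrin and several matrix proteins. In the epidermis, migrating keratinocytes at a wound edge are known to make urokinase, its receptor and several metalloproteinases.

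Library totals ranged from 6317564 to 13330479 counts. SGPL1 itself had 83.9 to 98.3 CPM (counts scaled to a common library size) in control, 58.3 to 61.6 in KO and 929 to 1132 in OE libraries, so the groups did not overlap. The keratinocyte markers KRT5, KRT14, TP63, DSG3, ITGB4 and COL17A1 were present in every group, with summed levels of 19800 to 20300 CPM in control, 10800 to 11800 in KO and 21600 to 22800 in OE libraries. KRT5 and KRT14 made up most of this sum, with means of 11020 and 5453 CPM in control and 5850 and 2929 in KO libraries. Log2 fold changes in KO cells against control followed the exon length of a gene, which is all its exon bases. Their median was 0.52 in the decile of shortest genes and -0.45 in the decile of longest genes. Values from a fit with the length and GC trend of each library removed are therefore given as "corrected". Levels are means of 3 libraries ± SD in CPM (n = 3), and differences are log2 fold changes ± SE. Adjusted p values come from the quasi-likelihood test of edgeR, adjusted over 13390 genes by the method of Benjamini and Hochberg, with 0.05 as the threshold. By this test 5 of the 6 keratinocyte markers were lower in KO cells than in control, and TP63 was higher (0.29 ± 0.09, adjusted p = 0.00992). Once corrected 4 were lower, TP63 was higher (0.45) and ITGB4 stood at -0.03. Over all genes 51.9% were called in this comparison, and 45.5% once corrected.

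Promoter sequence was available for only 4 of the 9 genes, from RefSeq on GRCh38.p14. Windows of 250 bases before a start site are shown for these 4, which differ in level and in response. MMP14 was the most abundant of the metalloproteinases chosen, PLAU was higher in KO cells, PLAUR was higher in OE cells and MMP10 had few or no counts. Capitals mark an AP-1 match (TGANTCA), a GC box (GGGCGG) or a TATA box (TATAAA), searched on both strands, and no matches overlapped one another. Sequences run 5′ to 3′ on the strand of the gene.
MMP14, chr14:22836335-22836584, plus strand: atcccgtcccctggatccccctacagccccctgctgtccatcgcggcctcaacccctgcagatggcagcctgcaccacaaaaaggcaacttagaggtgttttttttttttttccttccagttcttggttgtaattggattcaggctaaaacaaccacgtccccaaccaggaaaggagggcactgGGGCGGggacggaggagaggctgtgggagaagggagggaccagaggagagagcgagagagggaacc
PLAU, chr10:73910882-73911131, plus strand: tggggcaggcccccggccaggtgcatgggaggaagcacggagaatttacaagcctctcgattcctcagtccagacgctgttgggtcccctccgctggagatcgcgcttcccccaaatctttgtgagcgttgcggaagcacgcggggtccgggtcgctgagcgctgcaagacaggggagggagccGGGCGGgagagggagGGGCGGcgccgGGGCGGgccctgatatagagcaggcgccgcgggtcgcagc
PLAUR, chr19:43670170-43670419, minus strand: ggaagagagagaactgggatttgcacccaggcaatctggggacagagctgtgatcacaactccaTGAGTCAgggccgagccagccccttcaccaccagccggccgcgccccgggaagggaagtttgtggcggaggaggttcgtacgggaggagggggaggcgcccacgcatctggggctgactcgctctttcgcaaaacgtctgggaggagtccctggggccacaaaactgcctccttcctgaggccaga
MMP10, chr11:102780629-102780878, minus strand: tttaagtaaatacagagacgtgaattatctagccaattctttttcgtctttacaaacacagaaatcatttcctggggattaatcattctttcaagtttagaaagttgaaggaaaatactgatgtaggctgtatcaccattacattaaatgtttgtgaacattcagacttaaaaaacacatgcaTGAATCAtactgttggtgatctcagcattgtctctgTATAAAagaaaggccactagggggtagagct
The MMP14 window held 1 GC box and the PLAU window 3, without an AP-1 or TATA match. PLAUR had an AP-1 match that began 186 bases before its start, and MMP10 had an AP-1 match at 67 bases and a TATA box at 31 bases. PLAU has a second RefSeq start, at chr10:73910360-73910609, whose window held none of the 3 motifs. Of 35116 such windows in the RefSeq table, 6.6% held the AP-1 letters, 42.6% a GC box and 10.7% a TATA box. A match describes the letters and is not a measured binding site.

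Among the chosen metalloproteinases, MMP14 and MMP28 made up most of the signal and the classical secreted collagenase and stromelysin made up almost none. Compared per kilobase of exon, which is the scale for levels between genes, control cells had 144 ± 2.84 CPM per kb of MMP14, 33.9 ± 1.36 of MMP28, 13.2 ± 0.54 of PLAU and 2.89 ± 0.278 of MMP2. PLAUR (1.77 ± 0.0783) and PLAT (1.67 ± 0.101) came last and their libraries overlapped. MMP14 lay above 98.3% of tested genes on this scale in control cells, and PLAT above 26.1%. In KO cells the order was MMP14, MMP28, PLAU, PLAT, PLAUR and MMP2, with no overlap between neighbours. In OE cells it was the same, except that the libraries of PLAUR (3.56 ± 0.931) and MMP2 (2.45 ± 0.562) overlapped. On this scale PLAT thus stood below MMP2 in control cells and above it in KO and OE cells. The order in control depended on the divisor, all exon bases of a gene, which was 7085 for PLAT and 4706 for MMP2. In CPM their control libraries overlapped, with means of 11.8 for PLAT and 13.6 for MMP2.

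**Figure D1:**
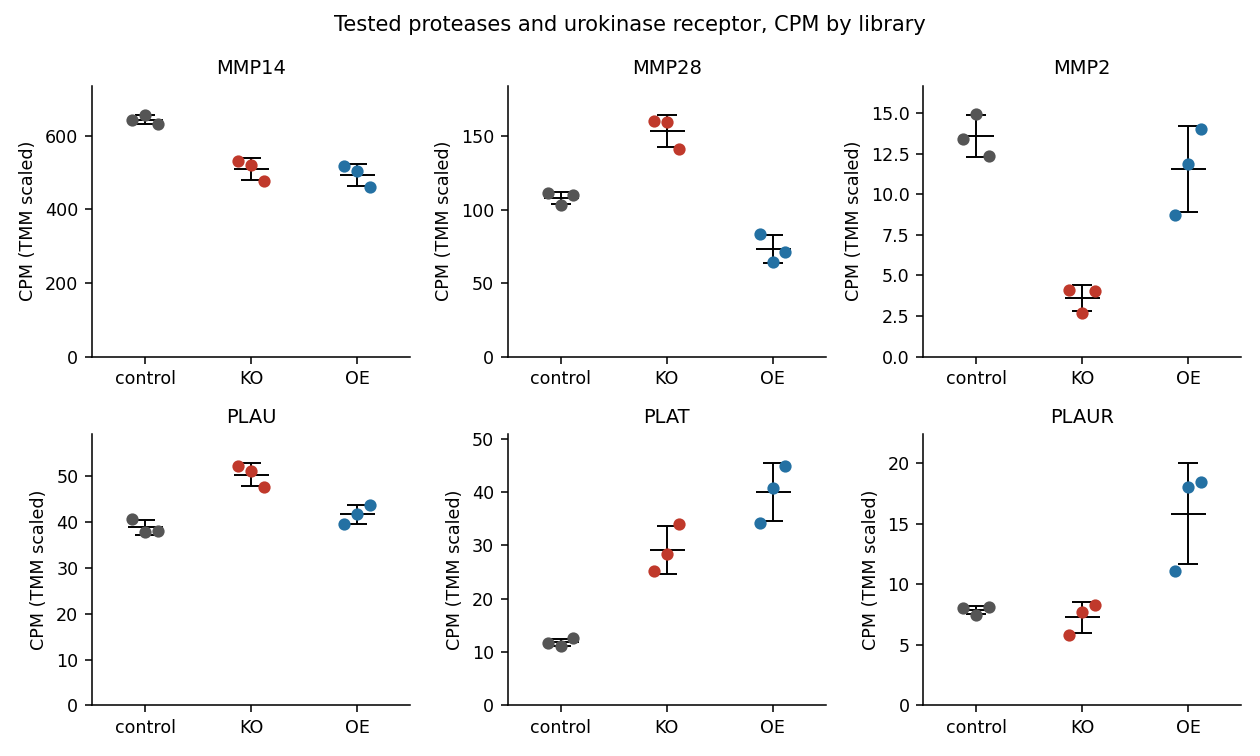
TMM-scaled CPM of the 6 tested genes in each library (points) with the group mean and SD (n = 3, black), on linear axes that start at 0. MMP28 was highest in KO and lowest in OE libraries, MMP2 was low only in the KO libraries (2.69 to 4.10 CPM), and PLAT was higher in the KO and OE libraries than in any control library.

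In KO cells, 3 of the 6 tested genes were higher than in control (MMP28, PLAU, PLAT), 2 were lower (MMP14, MMP2) and PLAUR did not pass. Across all genes 51.9% were called in this comparison (26.0% higher, 25.9% lower), and 59.5% did not overlap between the groups, as did 5 of the 6 genes here. With the trend removed 3 were higher and 1 was lower, and 45.5% of all genes were called (24.8% higher, 20.7% lower). The median log2 fold change of the 6 was 0.12 (corrected 0.14), against 0 over all genes (corrected 0.02). In OE cells 2 of the 6 were higher (PLAT, PLAUR), 2 were lower (MMP14, MMP28) and 2 did not pass (MMP2, PLAU). In that comparison 18.6% of all genes were called (9.28% higher, 9.34% lower) and 34.8% did not overlap, as against 4 of the 6. The corrected counts were also 2 and 2, with 21.1% of all genes called (10.6% higher, 10.5% lower). The median of the 6 was -0.06, against -0.01 over all genes. Both comparisons use the same 3 control libraries. The 6 genes are those with enough reads, so these counts do not describe all 9.

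MMP14 (ENSG00000157227; GRCh38 chromosome 14, 22836560 to 22849027, plus strand) encodes the membrane-type metalloproteinase that cuts collagen at the cell surface. The 3 control libraries held 641, 657 and 632 CPM, against 532, 520.0 and 477 in KO and 518, 504 and 461 in OE. Every edited library lay below every control library, and the KO and OE libraries overlapped. MMP14 was 1.26-fold lower in KO cells (-0.34 ± 0.08, adjusted p = 0.000711) and 1.30-fold lower in OE cells (-0.38 ± 0.08, adjusted p = 0.000804). With the trend removed the KO difference was -0.16 ± 0.07 and did not pass (adjusted p = 0.0639), whereas that of OE cells was -0.41 (adjusted p = 6.22e-05). KO cells differed from OE cells by 0.05 ± 0.08 as fitted (adjusted p = 0.626), and the corrected one was 0.25 ± 0.07 (adjusted p = 0.00339). The size of the KO change therefore depended on the length and GC trend, and the OE change did not.

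MMP2, the gelatinase that MMP14 activates, was lower in KO cells than in both other groups. MMP2 (ENSG00000087245; chromosome 16, 55389700 to 55506691, plus strand) had 13.4, 15.0 and 12.4 CPM in control, 4.10, 2.69 and 4.06 in KO and 8.74, 11.9 and 14.0 in OE libraries. The KO libraries lay well below all others, and the OE libraries overlapped the controls. MMP2 was 3.76-fold lower in KO than in control cells (-1.92 ± 0.24, adjusted p = 5.24e-07, corrected -1.78) and 3.19-fold lower than in OE cells (-1.70 ± 0.24, adjusted p = 2.18e-06, corrected -1.54). Its absolute log2 fold change in KO cells exceeded that of 97.7% of tested genes. Against control, OE cells differed by -0.22 ± 0.20 (adjusted p = 0.508). MMP2 is a well-known product of fibroblasts. The summed level of 6 fibroblast markers was 21.5 to 28.3 CPM in control, 8.12 to 15.1 in KO and 24.4 to 28.4 in OE libraries. That sum was nearly all COL1A1, the only one of the 6 that was tested, with 25.6 ± 3.75, 11.2 ± 3.09 and 26.0 ± 1.81 CPM (KO against control -1.17 ± 0.18, corrected -0.58 ± 0.16). PDGFRB had 2 counts in control, 20 in KO and 14 in OE cells, and DCN had 8, 4 and 4. COL3A1 and LUM were at 0 counts in all groups, and COL1A2 was at 0 in control and OE with 1 count in KO. The part of such cells in the MMP2 result was not tested, and in bulk RNA fewer cells of a type cannot be told apart from less RNA per cell.

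MMP28 (ENSG00000271447; chromosome 17, 35756249 to 35795707, minus strand) encodes epilysin, a secreted metalloproteinase known from keratinocytes of skin. It reached 111, 103 and 110.0 CPM in control, 160.4, 159.7 and 141 in KO and 83.3, 64.5 and 71.3 in OE libraries. No library of a group overlapped another group, with KO above control and OE below it. The log2 fold changes were 0.51 ± 0.09 in KO cells (adjusted p = 7.35e-05, corrected 0.61) and -0.57 ± 0.09 in OE cells (adjusted p = 0.000128, corrected -0.60). MMP28 was 2.11-fold higher in KO than in OE cells (1.08 ± 0.09, adjusted p = 1.39e-09, corrected 1.20). In counts, MMP28 held 12.6% of the reads of all 23 metalloproteinase genes followed in control cells, 20.5% in KO and 11.2% in OE cells, and MMP14 held 75.2%, 67.8% and 75.4%.

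PLAT, the tissue-type plasminogen activator (ENSG00000104368; chromosome 8, 42174718 to 42207676, minus strand), rose in KO and in OE cells. It had 11.7, 11.2 and 12.6 CPM in control, 25.2, 28.4 and 34.0 in KO and 34.3, 40.7 and 45.0 in OE libraries. Every edited library lay far above the control libraries, and the highest KO library lay just below the lowest OE library. PLAT was 2.47-fold higher in KO cells (1.30 ± 0.15, adjusted p = 1.88e-07, corrected 1.59) and 3.39-fold higher in OE cells (1.76 ± 0.15, adjusted p = 1.07e-08, corrected 1.77). In OE cells its absolute change exceeded that of 98.8% of tested genes. The KO to OE difference of -0.47 ± 0.14 passed before the correction (adjusted p = 0.0054) and not after it (-0.18 ± 0.14, adjusted p = 0.272).

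PLAU, the urokinase gene (ENSG00000122861; chromosome 10, 73909177 to 73917496, plus strand), changed less. Its libraries had 40.7, 37.9 and 38.0 CPM in control, 52.3, 51.2 and 47.7 in KO and 39.6, 41.8 and 43.7 in OE. The KO libraries lay above all others, and the control and OE libraries overlapped. PLAU was 1.30-fold higher in KO cells (0.38 ± 0.10, adjusted p = 0.00392, corrected 0.28 and 0.0263), and OE cells differed from control by 0.10 ± 0.10 (adjusted p = 0.549). KO exceeded OE by 0.27 ± 0.10 (adjusted p = 0.0263), a call that was lost with the trend removed (adjusted p = 0.0948) and without KO replicate 1, KO replicate 2, OE replicate 1 or OE replicate 2 (adjusted p = 0.0821, 0.0777, 0.0885 and 0.0632), and without a filter on low counts (0.137). Of the exon bases of PLAU, 31.0% also belong to C10orf55 on the opposite strand, which had 49 counts over all libraries. The counting command sets no option for strand or overlapping genes, so reads there cannot be assigned to either gene. The CPM per kb of PLAU still divide by all its exon bases.

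PLAUR, the membrane receptor that holds urokinase at the cell surface (ENSG00000011422; chromosome 19, 43646095 to 43670547, minus strand), was higher in OE cells. Control libraries held 8.08, 7.48 and 8.09 CPM, KO libraries 5.78, 7.74 and 8.29, and OE libraries 11.1, 18.04 and 18.45. All OE libraries lay above all others, with OE replicate 1 the lowest of them, and the KO and control libraries overlapped. PLAUR was 2.01-fold higher in OE than in control cells (1.02 ± 0.21, adjusted p = 0.00124, corrected 1.00) and 2.18-fold higher than in KO cells (KO against OE -1.14 ± 0.22, adjusted p = 9.75e-05, corrected adjusted p = 0.000259). KO and control cells differed by -0.13 ± 0.23 (adjusted p = 0.673, corrected -0.01).

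**Figure D2:**
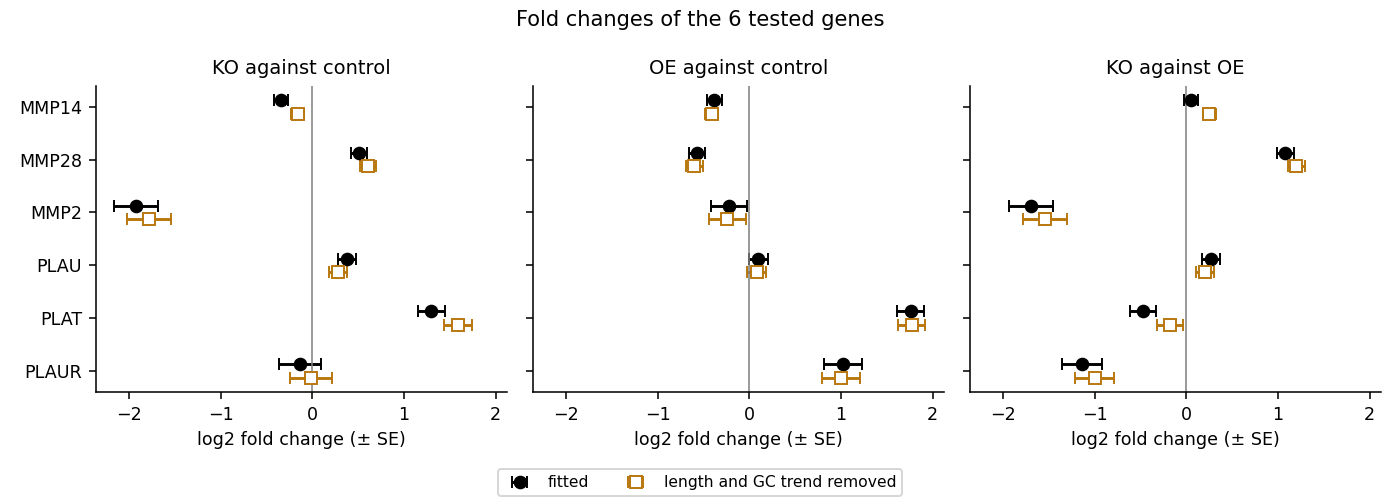
Log2 fold change ± SE of the 6 tested genes in the 3 comparisons, as fitted (filled circles) and with the length and GC trend removed (open squares). MMP28 lies on opposite sides of 0 in KO and OE cells against control, PLAT is above 0 in both, and the correction moves MMP14 in KO cells from -0.34 to -0.16.

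Between KO and OE cells, 2 of the 6 genes were higher in KO (MMP28 and PLAU), 3 were lower (MMP2, PLAT and PLAUR) and MMP14 did not pass. Of all genes, 57.6% were called in this comparison (28.6% higher, 29.0% lower) and 61.6% did not overlap, so the count of 5 of 6 says little about these genes as a set. After the correction 2 were higher (MMP14 and MMP28) and 2 lower (MMP2 and PLAUR), with 53.6% of all genes called (28.3% higher, 25.3% lower).

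The secreted collagenase MMP1 (ENSG00000196611; chromosome 11, 102789919 to 102798160) had 0 counts in all 9 libraries, of 83138587 counts in total, which allows a level of up to 0.036 CPM. MMP10, stromelysin-2 (ENSG00000166670; chromosome 11, 102770502 to 102780628), had 2, 2 and 0 counts in control, 0 in each KO library and 6, 0 and 2 in OE libraries. MMP9, gelatinase B (ENSG00000100985; chromosome 20, 46008908 to 46016561), had 3, 4 and 2 counts in control, 2, 4 and 0 in KO and 4, 2 and 2 in OE, and shares 18.4% of its exon bases with SLC12A5-AS1 on the opposite strand. These counts are too few to show a difference at this depth. Without a filter on low counts, MMP9 had adjusted p values of 0.922, 0.987 and 1 in the 3 comparisons, and MMP10 had 0.337, 0.888 and 0.184. Limits and intervals cover counting error only. Between 64.5% and 70.3% of values from 1 to 10 counts were even numbers, so single counts are not independent molecules and the limits may be too low. MMP1 and MMP10 are neighbours in the metalloproteinase cluster of chromosome 11, where 5 of 9 genes had no count in any library (MMP1, MMP3, MMP8, MMP12 and MMP27) and all 9 together had 130 counts.

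Among the other 17 metalloproteinases, 5 were tested. In KO cells 1 was higher, 1 was lower and 3 did not pass (median 0.02, corrected 2 higher and 1 lower with a median of 0.23), where 51.9% of all genes were called (45.5% corrected). MMP25, a metalloproteinase anchored by a lipid tail, was lower with 0.873 ± 0.442 against 2.73 ± 0.552 CPM (-1.69 ± 0.51, adjusted p = 0.0075). MMP19 was higher, with 2.68 ± 0.138 against 1.20 ± 0.148 CPM (1.15 ± 0.46, adjusted p = 0.041), a call that was lost without any single library of the 2 groups (adjusted p from 0.0763 to 0.126) and without a filter (0.0945). MMP15, a membrane-type relative of MMP14, averaged 76.7 ± 4.26 CPM over control and 64.6 ± 5.41 over KO libraries (-0.25 ± 0.11, adjusted p = 0.0562). It passed without KO replicate 2 (0.0428) and in a fit of the 2 groups alone (0.0190), but stood at 0.08 with the trend removed. In OE cells it was lower, with 59.1 ± 8.64 CPM (-0.38 ± 0.11, adjusted p = 0.0132), and the other 4 did not pass, where 18.6% of all genes were called. The call of MMP15 was lost without control replicate 1, OE replicate 2 or OE replicate 3 (0.0711, 0.0551 and 0.0713). MMP17 had 7.83 ± 0.367 CPM in control and 10.9 ± 1.90 in OE cells and did not pass (adjusted p = 0.103).

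Of the inhibitors of plasminogen activators, SERPINE2 and SERPINB2 were lower in KO and higher in OE cells. SERPINE2, protease nexin 1 (chromosome 2, 223975045 to 224039318), inhibits thrombin and urokinase and had 23.6, 22.9 and 22.3 CPM in control, 4.58, 5.61 and 6.76 in KO and 36.2, 43.0 and 51.8 in OE libraries. SERPINB2, plasminogen activator inhibitor 2 (chromosome 18, 63871692 to 63903888), had 36.3, 32.7 and 28.7 CPM in control, 6.99, 7.63 and 15.2 in KO and 47.7, 58.6 and 59.9 in OE. SERPINB2 shares 20.0% of its exon bases with SERPINB10, which had 2 counts over all libraries. For both genes no KO library reached a control library and no OE library fell to one.

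Against control, KO cells had log2 fold changes of -2.04 ± 0.18 for SERPINE2 (adjusted p = 2.76e-09, corrected -1.85) and -1.76 ± 0.20 for SERPINB2 (adjusted p = 9.49e-08, corrected -2.18). OE cells had 0.94 ± 0.14 (adjusted p = 4.15e-05) and 0.77 ± 0.16 (adjusted p = 0.00154). KO was below OE by -2.97 ± 0.17 and -2.53 ± 0.19, with adjusted p values up to 1.25e-10. SERPINF2, the plasmin inhibitor alpha 2-antiplasmin, had 7.60 ± 0.915 CPM in control, 4.53 ± 1.07 in KO and 2.83 ± 1.52 in OE libraries. It was lower in OE cells (-1.45 ± 0.32, adjusted p = 0.00222). In KO cells SERPINF2 did not pass (-0.73 ± 0.31, adjusted p = 0.0569), but it did once corrected (adjusted p = 0.0392), in a fit of the 2 groups alone (0.0212), without a filter (0.0397) and with limma-voom (0.0494). Of the 5 inhibitors of plasminogen activators and plasmin followed, 4 were tested. In KO cells 0 rose, 2 fell and 2 did not pass (median -1.25, corrected 0 and 3 with a median of -1.32), and in OE cells 2 rose, 1 fell and 1 did not pass (median 0.66). The share called over all genes was 51.9% in KO cells (25.9% lower), or 45.5% once corrected (20.7% lower), and 18.6% in OE cells.

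**Figure D3:**
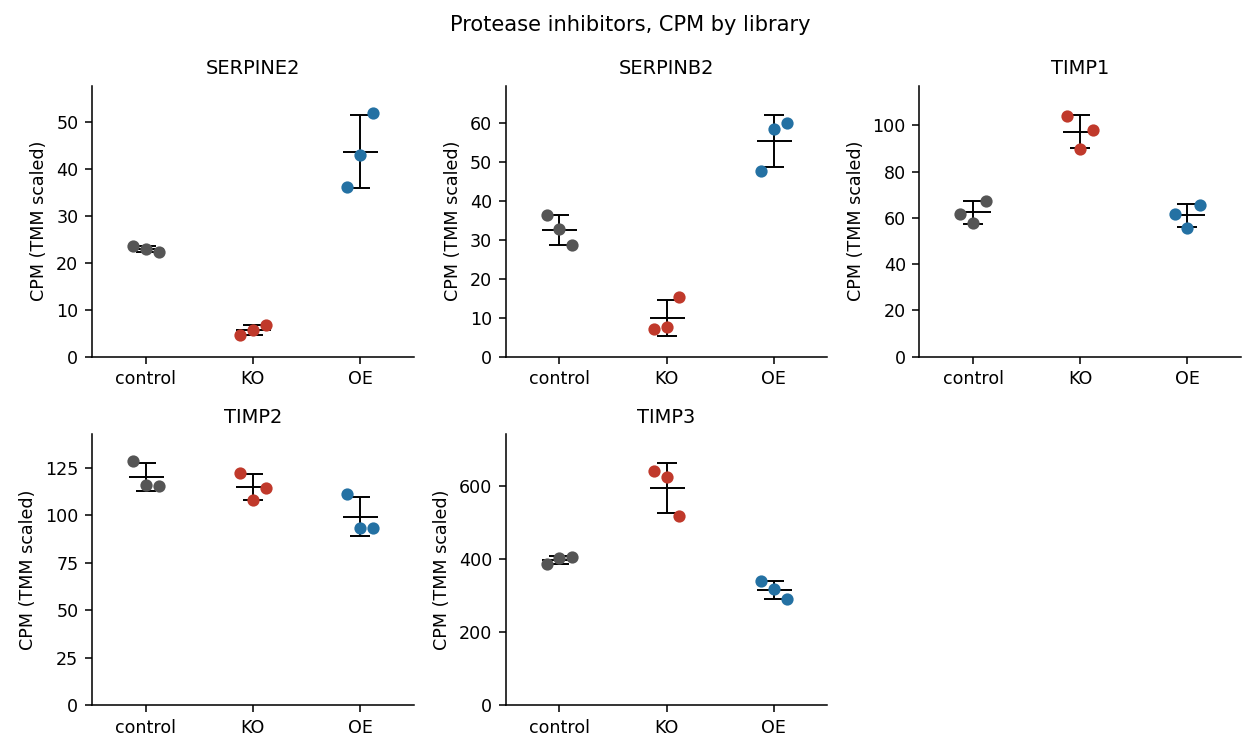
TMM-scaled CPM of SERPINE2, SERPINB2 and the tissue inhibitors of metalloproteinases TIMP1, TIMP2 and TIMP3 in each library (points), with the group mean and SD (n = 3, black), on linear axes that start at 0. SERPINE2 and SERPINB2 are lowest in KO and highest in OE libraries, and TIMP1 and TIMP3 are highest in KO libraries.

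The tissue inhibitors of metalloproteinases moved otherwise. TIMP3, which binds to the matrix, had 386, 404 and 405 CPM in control, 642, 624 and 517 in KO and 340, 317 and 290.3 in OE libraries. It was higher in KO (0.58 ± 0.09, adjusted p = 5.62e-06, corrected 0.51) and lower in OE cells (-0.34 ± 0.09, adjusted p = 0.00712), with no overlap between groups. TIMP1 had 62.4 ± 4.81 CPM in control, 97.3 ± 7.29 in KO and 61.1 ± 4.995 in OE cells, and was higher in KO cells (0.64 ± 0.10, adjusted p = 8.03e-06, corrected 0.29 and 0.0118). TIMP1 has a short exon length (1446 bases), and its corrected change in KO cells was the smaller. TIMP2, the partner of MMP14 in the activation of pro-MMP2, had 119.8 ± 7.41, 114.8 ± 7.06 and 99.1 ± 10.2 CPM. It did not pass in KO cells (adjusted p = 0.596), and its fall in OE cells (-0.28 ± 0.09, adjusted p = 0.0347) was lost without any single library other than OE replicate 1 (0.0627 to 0.17). Of 6 such inhibitors 5 were tested, with 2 higher, 0 lower and 3 not past the test in KO cells (median 0.58, corrected 0.29) and 0 higher, 2 lower and 3 not past the test in OE cells (median -0.03), against 51.9% and 18.6% of all genes called. RECK, a membrane-anchored inhibitor, had 1.82 ± 0.180 CPM in control, 3.07 ± 0.0568 in KO and 3.08 ± 0.912 in OE cells and passed in neither (adjusted p = 0.113 and 0.198).

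Summed per kilobase, TIMP1, TIMP2 and TIMP3 stood at 0.810 to 0.867 times the sum of the 6 chosen metalloproteinases in control libraries, 1.29 to 1.37 times in KO and 0.913 to 0.972 times in OE libraries. The KO libraries had the highest ratios. This ratio was chosen after the values were seen and is a description of mRNA, with no test. The levels in it are not corrected for the length and GC trend. In KO against control the correction moved TIMP1 from 0.64 to 0.29, TIMP2 from -0.06 to 0.08 and TIMP3 from 0.58 to 0.51. It moved MMP14 from -0.34 to -0.16, MMP28 from 0.51 to 0.61 and MMP2 from -1.92 to -1.78. A corrected ratio was not computed.

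Plasminogen itself (PLG) was not tested, with 0 counts in control and KO cells, and of its 5 tested surface receptors and clearance receptor 3 were higher, 1 was lower and 1 did not pass in KO cells (median 0.23, corrected 2 and 2), with 51.9% of all genes called (45.5% corrected). The correction turned the direction of S100A10, an annexin A2 partner singled out after its values were seen, from 0.23 ± 0.09 (adjusted p = 0.0406) to -0.28 ± 0.07 (adjusted p = 0.00202), and ENO1 passed as higher once corrected (0.27 ± 0.08, adjusted p = 0.00463). LRP1, the endocytic receptor that clears urokinase bound to its inhibitor, had 139, 152 and 177 CPM in control, 30.0, 45.1 and 38.1 in KO and 123, 114 and 94.1 in OE libraries. It was lower in KO and OE cells, without overlap with control, by -2.05 ± 0.13 in KO (adjusted p = 1.91e-11, corrected -1.05) and -0.50 ± 0.12 in OE cells (adjusted p = 0.00341). LRP1 has a long exon length (20859 bases), and its corrected fall in KO cells was the smaller. ANXA2, annexin A2, which binds plasminogen and PLAT at the surface, was higher in KO cells at 5928 ± 407 against 4194 ± 201 CPM (0.50 ± 0.08, adjusted p = 2.31e-05, corrected 0.75). In OE cells it had 3916 ± 405 CPM (adjusted p = 0.461). There 1 gene of this list rose, 1 fell and 3 did not pass (median -0.08), with 18.6% of all genes called. The rise was ENO1, enolase 1, which also serves as a plasminogen receptor (0.24 ± 0.08, adjusted p = 0.0398), a call lost without any control library or OE replicate 3 (0.081 to 0.141). PLGRKT, a plasminogen receptor, was higher in KO cells (0.91 ± 0.20, adjusted p = 0.000591), but not once corrected (0.45 ± 0.19, adjusted p = 0.0563).

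Proprotein convertases and membrane serine proteases activate the proenzymes of both systems. Of 9 such genes and their inhibitors 8 were tested, with 2 higher, 4 lower and 2 not past the test in KO cells (median -0.37), but 2 higher and 1 lower once corrected (median -0.04). Over all genes 51.9% were called, and 45.5% once corrected. ST14, matriptase, which activates pro-urokinase, was lower in KO cells, with 381 ± 14.7 against 526 ± 6.02 CPM (-0.47 ± 0.07, adjusted p = 1.19e-05, corrected -0.24). The convertase PCSK7 was lower as fitted (-0.86 ± 0.12, adjusted p = 1.98e-06) and not once corrected (-0.08 ± 0.11, adjusted p = 0.599). The matriptase inhibitor SPINT2 was higher (0.48 ± 0.08, adjusted p = 3.47e-05, corrected 0.69). In OE cells 0 were higher and 2 lower (median -0.22), where 18.6% of all genes were called. The 2 were the matriptase inhibitor SPINT1 (-0.36 ± 0.07, adjusted p = 0.00116) and PCSK7 (-0.40 ± 0.11, adjusted p = 0.0143). PCSK7 fell short of the threshold when control replicate 2, control replicate 3 or OE replicate 2 was left out (0.0523, 0.0784 and 0.0695). PCSK5 did not pass (-0.49 ± 0.18, adjusted p = 0.0611), except without OE replicate 1 (0.0142) and with limma-voom (0.0293).

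Among 25 ADAM, ADAMTS and astacin proteases 13 were tested. In KO cells 2 were higher, 4 lower and 7 did not pass (median -0.08, corrected 5 and 4 with a median of 0.24), and in OE cells 2 were higher, 1 lower and 10 did not pass (median 0.11). Over all genes 51.9% were called in KO (45.5% corrected) and 18.6% in OE cells. The membrane proteases ADAM8 and ADAM19 were lower in KO and higher in OE cells. ADAM8 had 37.7 ± 2.25 CPM in control, 19.2 ± 1.61 in KO and 66.6 ± 9.91 in OE cells, with -0.97 ± 0.13 (adjusted p = 1.25e-06, corrected -0.58) and 0.82 ± 0.12 (adjusted p = 1.84e-05). ADAM19 had 51.2 ± 3.29, 27.1 ± 3.72 and 72.7 ± 5.90 CPM, with -0.92 ± 0.12 (adjusted p = 7.16e-07, corrected -0.57) and 0.50 ± 0.11 (adjusted p = 0.00166). KO was below OE by -1.79 ± 0.13 and -1.42 ± 0.12, with adjusted p values up to 4.01e-10. TLL1, an astacin protease, was higher in KO cells (0.86 ± 0.18, adjusted p = 0.000369, corrected 0.94). BMP1, its relative that trims procollagen, was lower in OE cells (-0.29 ± 0.08, adjusted p = 0.00748). In KO cells BMP1 did not pass as fitted (0.06 ± 0.08, adjusted p = 0.506) and did once corrected (0.51 ± 0.07, adjusted p = 6.40e-07).

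AP-1 and ETS factors are known regulators of metalloproteinase and urokinase genes. All 9 followed were tested, with 2 higher, 2 lower and 5 not past the test in KO cells (median 0.14, corrected 0.20), where 51.9% of all genes were called. In OE cells 2 were higher, 2 lower and 5 not past the test (median -0.03), where 18.6% of all genes were called. FOS rose in KO cells from 14.7 ± 0.941 to 110.2 ± 8.73 CPM (2.90 ± 0.12, adjusted p = 4.92e-14), and JUNB was higher there too (0.58 ± 0.09, adjusted p = 9.21e-06). FOSL2 was lower in KO cells (-0.62 ± 0.10, adjusted p = 1.71e-05, corrected -0.34). FOSL1 was higher in OE cells, with 21.8 ± 4.52 against 10.8 ± 1.85 CPM (1.01 ± 0.18, adjusted p = 0.000223). ETS2 (-0.31 ± 0.09, adjusted p = 0.0179) and FOSL2 (-0.32 ± 0.10, adjusted p = 0.0257) were lower in OE cells. ETS2 did not pass with control replicate 1, control replicate 2 or OE replicate 2 left out (0.0744 to 0.0883), nor FOSL2 without any single library other than OE replicate 1 (0.0552 to 0.119). MMP1 and MMP10 stayed at or near 0 counts in the same libraries. Any link between these factors and the levels of the chosen genes was not tested.

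For each tested gene, those with the most similar log2 CPM over the 9 libraries were sought. All values come from the same 9 libraries in 3 groups, so the correlations mostly follow the group means and are given as a description. They were EPHA1 and TMEM132A for MMP14 (r = 0.98 and 0.975), METRNL and CC2D1B for MMP2 (r = 0.983 and 0.985) and GM2A and PNRC1 for MMP28 (r = 0.996 and 0.995). GM2A, the activator protein of ganglioside breakdown in lysosomes, had 447 CPM in control, 566 in KO and 356 in OE cells. For PLAT they were ERRFI1 and CENPM (r = 0.99 and 0.989), for PLAU VPS26A and ZNF649 (r = 0.98 and 0.977) and for PLAUR RFLNB and SLC29A1 (r = 0.986 and 0.967). ERRFI1, a feedback inhibitor of the EGF receptor, had 145, 186 and 208 CPM. From 16 genes (PLAT) to 256 genes (MMP28) reached r of at least 0.95, so none of these pairs is particular.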

How the data were processed

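Per the labels' protocols, poly-A RNA was fragmented and sequenced as paired reads. The deposited files hold raw gene counts, whole numbers that come from featureCounts 1.5.2 run by the authors on the Ensembl release 101 annotation of GRCh38, per the file headers; the submitters' processing notes also name HISAT2 1.03 and a featureCounts version of 0.1.0. No option for strand, read pairs or overlapping genes appears in the recorded command. Mates may thus be counted separately, and reads in exon bases shared between genes cannot be assigned to either gene.

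Genes were kept by edgeR's filterByExpr (minimum count 10), scaled by TMM and fitted with edgeR 4.0.16 in R 4.3.3 with the group as the only term over all 9 libraries. Tests were two-sided. CPM are scaled by TMM, and CPM per kb divide them by exon length. The corrected fit has an offset per library: its log2 CPM (prior count 2) relative to the mean of all, smoothed by loess (span 0.3) over log2 exon length and GC content, with GC from GENCODE release 29 for 13341 of 13390 genes. Alternatives used DESeq2 1.42.0 and limma 3.58.1, and the functions were tested on simulated data. No 2 libraries of a group held identical counts, and their chi-square per degree of freedom was 2.72 to 10.8, a value that mates counted separately would also raise.

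The text names all 9 genes, up to 3 genes of each list by smallest p in KO and in OE against control, and the 2 genes most like each tested gene by Pearson correlation. Members, lists and tests were chosen with earlier results of these data known. One gene of a list is not reported here and was left out of its list's counts. The lists were other matrix metalloproteinases, metalloproteinase inhibitors, inhibitors of plasminogen activators and plasmin, plasminogen with its receptors, convertases and membrane serine proteases, ADAM, ADAMTS and astacin proteases, AP-1 and ETS factors, and markers of keratinocytes, fibroblasts, melanocytes, and blood and endothelial cells. The summed melanocyte markers were 1.57 to 2.73 CPM in control, 1.86 to 2.41 in KO and 1.46 to 2.99 in OE libraries, and blood and endothelial markers 3.69 to 6.22, 5.94 to 9.13 and 1.55 to 2.19. Most of this last sum was CD14, the only one of its 6 genes that was tested, with means of 3.50, 6.62 and 1.33 CPM. PTPRC, LYZ and PECAM1 had 0 counts in all groups. VWF had 31 counts in control, 10 in KO and 14 in OE cells, and CDH5 had 7, 18 and 0.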

Additional observations from a re-analysis of the deposited data

How the results depend on the processing

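The counts of changed genes among those chosen (5 in KO and 4 in OE against control, 5 in KO against OE) stayed within 1 of these numbers under each alternative run. For single chosen genes, 256 of 270 alternative values kept their direction and their side of the threshold, 10 fell short of it, 2 newly passed it and 2 changed sign. Those 2 did not pass the test to begin with: MMP14 in KO against OE (-0.01 without OE replicate 3) and PLAUR in KO against control (0.02 without KO replicate 1), which ranged from -0.21 to 0.02 with single libraries left out. Of 765 values of the genes named from the lists, 707 kept direction and side and 6 changed sign, again for differences that had not passed: MMP15 in KO cells (0.08 with the trend removed, 0.09 with the replicate block as well), TIMP2 in KO cells (0.08 in both) and TIMP1 in OE cells (0.03 without control replicate 3, 0.04 without OE replicate 2, and down to -0.08). S100A10 was not among these 765 values. Its difference in KO cells passed in opposite directions as fitted (0.23) and with the trend removed (-0.28). Over all genes, 1431 rather than 2493 changed in OE against control at an adjusted p under 0.01. Libraries with the same number did not deviate together (correlations from -0.077 to 0.066), so the number in the titles is not taken as a pairing. With it as a block, 5, 4 and 5 of the chosen genes and 6907, 2468 and 7669 of all genes changed in KO against control, OE against control and KO against OE. With the block and the trend removal together, MMP14 passed in KO against control (-0.16, adjusted p = 0.049), and with the block alone MMP19 did not (adjusted p = 0.0585). Depth limits MMP9 and MMP10, which had 0 to 6 counts in a library.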

Other observations

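Elsewhere in the metalloproteinase cluster of chromosome 11, 2 genes that did not pass the filter on low counts had more reads in KO cells; they were chosen after their values were seen. MMP13, collagenase 3 (102942995 to 102955732), had 4, 4 and 6 counts in control, 6, 28 and 10 in KO and 0 in each OE library, where 0 counts over the group allow up to 0.0918 CPM. MMP7, matrilysin (102520508 to 102530750), had 4, 5 and 0 counts in control, 17, 18 and 6 in KO and 4, 0 and 4 in OE libraries. KO replicate 2 held most of the MMP13 reads of its group. Without a filter on low counts, MMP13 did not pass in KO against control (adjusted p = 0.0842). It passed in OE against control (0.00586) and in KO against OE (7.91e-07). MMP7 had adjusted p values of 0.0252, 0.919 and 0.00723 in these comparisons. Because both genes were picked on these same counts, the p values are a description only.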
